A study of Homo sapiens with 8 samples.

Results

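The miR-200 family and miR-205-5p were rare in every small RNA library of H1299 cells, at 0 to 7 reads of a member per library. Most of these counts were at or under the limit of detection, taken as 3 reads per library. The 5 mature miRNAs of the family (miR-200b-3p, miR-200c-3p, miR-429, miR-200a-3p and miR-141-3p) took 21 of 3076146 miRNA reads over 8 libraries, and miR-205-5p took 27. These 6 miRNAs were chosen by name out of 945 miRNAs with a read in the series, when earlier results of these data were known. All 6 had at least 1 read in some library, and all 6 together made up 0.00156% of the miRNA reads. Only miR-205-5p passed the filter on low values that precedes the tests.

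H1299 is an established human non-small cell lung carcinoma line, derived from a lymph node, that makes no p53 of its own. Small RNA was sequenced from H1299 cells carrying an empty vector (EV) and from H1299 cells stably expressing mutant p53R273H (R273H), each left untreated or exposed for 24 h to the topoisomerase inhibitor etoposide, a DNA-damaging drug. This made 4 groups of 2 libraries. The etoposide dose stands in the labels both as 10 µM and as 10 mM. The R273H line grew from picked colonies that resisted G418 after transfection of a pCMV plasmid, so that a CMV promoter drives the mutant protein, while the EV cells had been infected with their vector and came from another laboratory. Clone, vector and mutant p53 therefore cannot be told apart in any difference between the lines.

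The miR-200 family and miR-205 are known as guardians of the epithelial state. They bind the transcripts of ZEB1 and ZEB2, transcription factors that silence E-cadherin and other epithelial genes, and ZEB1 and ZEB2 in turn silence the miR-200 genes. Cells that have gone through an epithelial to mesenchymal transition usually have little of these miRNAs, and neither ZEB nor E-cadherin was measured in these small RNA libraries.

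A miRNA finds its targets mostly through its seed, bases 2 to 8 from the 5′ end. The mature sequences of the 6 members are shown because their seeds split the family and because their near-identity limits what reads of 1 member mean. They were taken from RefSeq (GRCh38.p14), where all 6 were found, and the seed is in capitals.
hsa-miR-200b-3p: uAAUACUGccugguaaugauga
hsa-miR-200c-3p: uAAUACUGccggguaaugaugga
hsa-miR-429: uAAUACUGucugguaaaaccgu
hsa-miR-200a-3p: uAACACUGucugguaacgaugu
hsa-miR-141-3p: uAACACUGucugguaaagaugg
hsa-miR-205-5p: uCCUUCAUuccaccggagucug

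The first 3 share the seed AAUACUG, miR-200a-3p and miR-141-3p share AACACUG, and miR-205-5p has CCUUCAU. Both miR-200 seeds differ at a single base, U4C from miR-200b-3p to miR-200a-3p, counted from 1 at the 5′ end. Over 22 compared bases, miR-200b-3p and miR-200c-3p differed at 2 positions (U11G and A22G), and so did miR-200a-3p and miR-141-3p (C17A and U22G). A read of 17 bases from the 5′ end, the shortest kept, holds only 1 of the 2 differences in each pair. For miR-200a-3p and miR-141-3p that difference is its last base. A single short read is therefore uncertain evidence for one member of such a pair. miR-205-5p differed from the family at 15 to 17 positions.

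In GRCh37, the build used by the study, the family lies in a pair of clusters, both on the plus strand. On chromosome 1 the hairpins MIR200B (1102484 to 1102578), MIR200A (1103243 to 1103332) and MIR429 (1104385 to 1104467) span 1984 bases. No other annotated gene overlaps their mature 3p sequences. On chromosome 12, MIR200C (7072862 to 7072929) and MIR141 (7073260 to 7073354) span 493 bases, both inside the noncoding gene MIR200CHG (7072389 to 7073610). Their mature 3p sequences lie outside the exons of the transcript that spans them. The mature miR-205-5p matches chromosome 1 at 209605511 to 209605532, inside MIR205HG (209602162 to 209606193) and outside the exons of the transcripts that span it.

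Read counts set the precision of all values given here. Libraries held 213007 to 536991 miRNA reads, so that 1 read stood for 1.86 to 4.69 RPM (reads scaled to a library of 1000000 miRNA reads), and a count of 0 allowed up to 5.59 to 14.1 RPM (3 reads per library). Intervals are exact Poisson 95% intervals, and intervals and limits cover counting error only. The study calls the replicates biological, and the labels do not say whether they were separate cultures. The p-values therefore measure the spread between libraries, which may be partly technical. A read counts 1 mature miRNA of 22 or 23 bases here, so levels were compared between members without a length term. In bulk RNA, fewer cells with a miRNA and less of it per cell cannot be told apart.

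Among the members with the seed AAUACUG, reads were found in 3 of 8 libraries. miR-200b-3p, a repressor of ZEB1 and ZEB2, had 1 and 0 reads in untreated EV, 0 and 0 in etoposide-treated EV, 0 and 2 in untreated R273H, and 0 and 2 in etoposide-treated R273H. miR-200c-3p, which comes from the chromosome 12 cluster, had a single read in all 8 libraries, in replicate 2 of untreated R273H. miR-429, the last hairpin of the chromosome 1 cluster, had 3 reads, all in that same library. No group held more than 3 reads of any of these miRNAs in a library, so no fold between groups is given for them. In the 4 EV libraries together the seed had 1 read among 1362057, or 0.734 RPM (interval 0.0186 to 4.09).

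The members with the seed AACACUG were as rare. miR-200a-3p had 0 and 1 reads in untreated EV, 0 and 0 in etoposide-treated EV, 0 and 5 in untreated R273H, and 1 and 1 in etoposide-treated R273H. Its 5 reads in replicate 2 of untreated R273H, at 12.3 RPM, were the largest count of any family member in a library. miR-141-3p had no read in any EV library. In R273H it had 1 and 0 reads untreated and 1 and 2 reads under etoposide, so it was the member of the family spread most evenly over the R273H libraries, although no library rose above 3 reads.

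Over the 8 libraries, mean levels (± SD) ran from 0.307 ± 0.869 RPM for miR-200c-3p through 0.922 ± 2.61 for miR-429, 1.24 ± 2.05 for miR-141-3p, 1.56 ± 2.42 for miR-200b-3p and 2.64 ± 4.20 for miR-200a-3p to 10.8 ± 10.1 for miR-205-5p. Every SD within the family was larger than its mean, and no neighbours in this order within the family differed beyond their spread. The pooled interval of miR-205-5p (5.78 to 12.8 RPM) lay above that of miR-200a-3p (1.12 to 5.12), but the SDs of both overlapped.

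**Figure D1:**
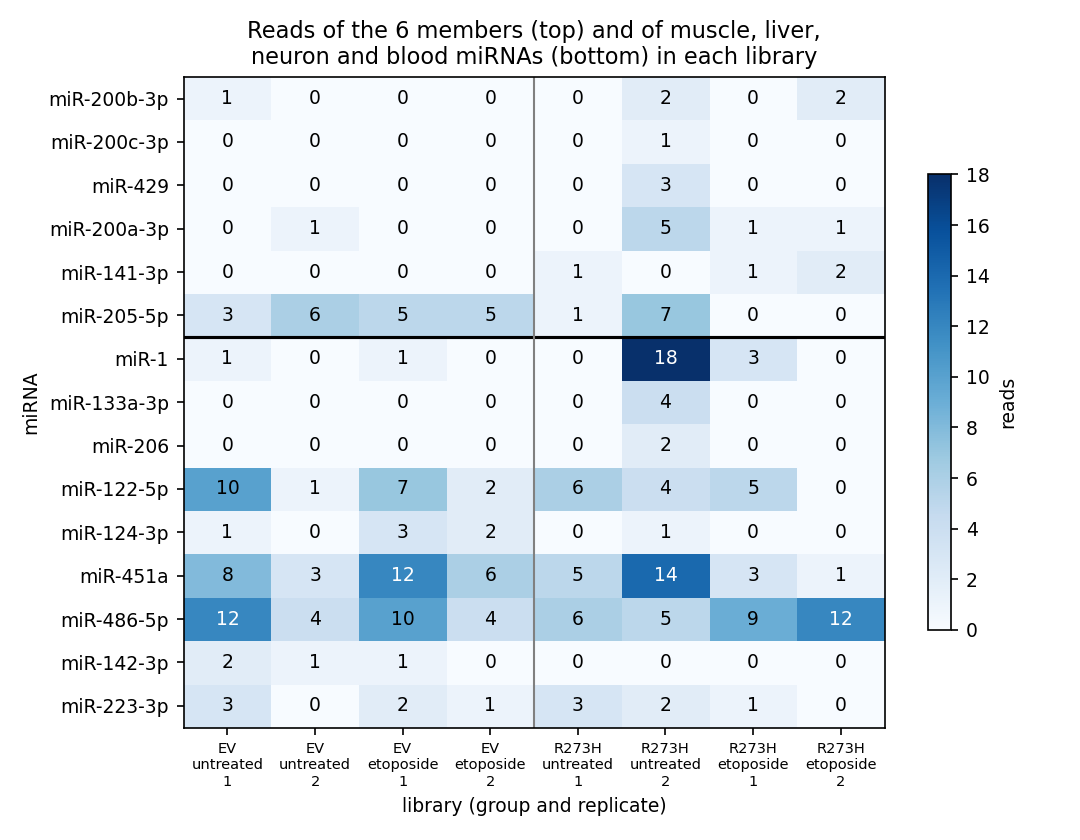
Reads (number and colour, 0 to 18) of the 6 members above the black line and of miRNAs known from muscle, liver, neuron and blood below it, by library, with the 4 EV libraries left of the grey line and the 4 R273H libraries right of it. Replicate 2 of untreated R273H holds 11 of the 21 reads of the miR-200 family and 18 reads of miR-1, while miR-205-5p is at 0 in both etoposide-treated R273H libraries.

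The other arms of these hairpins were looked for as well, since a locus that is transcribed and processed may leave both strands. None of 5 opposite arms (miR-200a-5p, miR-200b-5p, miR-200c-5p, miR-141-5p and miR-205-3p) was listed in any table, which allows up to 0.975 RPM for each over the 8 libraries. A row not listed in a table was taken as 0 reads: of 499 features left out of a table whose other libraries could be checked, 0 had a read there. miR-141-3p, miR-200c-3p and miR-429 were left out of the EV etoposide table for this reason.

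By mean level the members held rank 305 (miR-205-5p), the place right after miR-375 at 428 (miR-200a-3p), and ranks 481 (miR-200b-3p), 521 (miR-141-3p), 569 (miR-429) and 819 (miR-200c-3p) of 945 miRNAs. miR-200c-3p was 1 of 249 miRNAs with a single read in the series, while miR-205-5p had more reads than 65.8% of the miRNAs. Its neighbours in rank were miR-628-5p at 10.8 and miR-642a-5p at 10.7 RPM. miR-200b-3p stood between miR-6777-3p and miR-3165, miR-141-3p between miR-4440 and the muscle miRNA miR-133a-3p, and miR-429 between miR-6814-5p and miR-3667-3p. miR-21-5p, the most abundant miRNA and known from invasive tumours, accounted for 30.6% to 44.5% of a library's miRNA reads, at 35995 times the mean level of miR-205-5p. No member reached a mean of 10 reads, the minimum set for naming miRNAs with a similar pattern, so none is named.

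**Figure D2:**
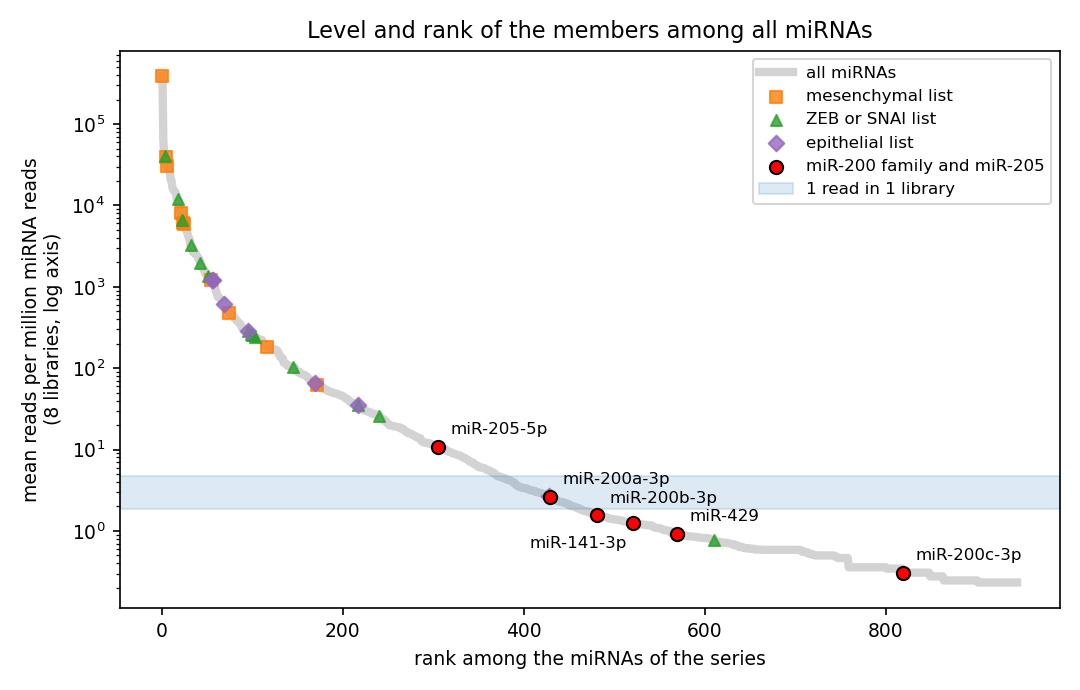
Mean RPM over the 8 libraries (log axis) against rank for all 945 miRNAs (grey line), with the 6 members as red circles, the mesenchymal list as squares, the ZEB or SNAI list as triangles and the epithelial list as diamonds; the blue band is what 1 read in 1 library stands for. The miR-200 family lies within or below that band, down to rank 819, while miR-205-5p lies above it at rank 305.

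The reads of the family were unevenly spread over the libraries. Summed over the 5 members, untreated EV held 1 and 1 reads (1.86 and 4.0 RPM), etoposide-treated EV held 0 and 0, untreated R273H held 1 and 11 (2.21 and 27.0 RPM), and etoposide-treated R273H held 2 and 5 (3.95 and 14.3 RPM). Replicate 2 of untreated R273H thus held 52.4% of the family's reads with 13.2% of all miRNA reads. It was also the library with the most members detected, 5 of 6. The 2 untreated R273H libraries lay farther apart (2.21 and 27.0 RPM) than the means of the untreated lines, 2.93 in EV and 14.6 in R273H.

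The same library stood apart in muscle miRNAs, but not in those of blood. The muscle miRNAs miR-1, miR-133a-3p and miR-206 had 18, 4 and 2 reads in it, and 5 reads in all in the other 7 libraries, where miR-133a-3p and miR-206 were at 0. The list for liver, muscle and neuron (5 of 5 miRNAs detected) summed to 71.3 RPM there and to 0 to 51.6 RPM in the other libraries. The blood list (4 of 6 detected) summed to 51.6 RPM there and to 25.7 to 117 RPM elsewhere, with miR-144-3p and miR-142-5p at 0 in every library. Of 514 miRNAs detected in this library, 38 were found in no other library, against 15 to 58 in the others. Their part in the levels of the miR-200 family was not tested. Results that rest on this library are given with and without it.

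Between the lines, the family had 2 reads in 4 EV libraries and 19 in 4 R273H libraries. As pooled levels these are 1.47 RPM in EV (interval 0.178 to 5.30) and 11.1 RPM in R273H (6.67 to 17.3), intervals that do not overlap but take no account of the spread between libraries. Without replicate 2 of untreated R273H the R273H level was 6.12 RPM (2.64 to 12.1), which overlaps the interval of EV. The libraries of the lines overlapped too, since the lowest R273H library was at 2.21 RPM and the highest EV library at 4.0 RPM.

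An exact two-sided permutation test of each family member, with libraries exchanged between the lines within each treatment, gave p = 0.167 for miR-141-3p, 0.389 for miR-200a-3p and 0.5 for miR-200b-3p. For miR-200c-3p and miR-429 the exact permutation test gave p = 1. The smallest p the 36 arrangements allow is 0.0556, so this design could not pass 0.05 for any member. Mean levels were higher in R273H for each of the 5, by 0.615 RPM (miR-200c-3p) to 3.28 RPM (miR-200a-3p), all less than 1 read in the smallest library (4.69 RPM). With reads in 1 library only, the outcome for miR-200c-3p and miR-429 was fixed in advance. This test could therefore not decide whether any single member differed between the lines.

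The reads were also counted by cluster, with no test of a difference between the clusters. The chromosome 1 cluster (miR-200b-3p, miR-200a-3p and miR-429) had 2 reads in EV and 14 in R273H, of which 10 were in replicate 2 of untreated R273H. The chromosome 12 cluster (miR-200c-3p and miR-141-3p) had 0 reads in EV, which allows up to 2.20 RPM over the 4 libraries, and 5 in R273H, at least 1 in each of its 4 libraries. Without that replicate the R273H reads of both clusters were 4 and 4. The pooled R273H level of the chromosome 12 cluster, 2.92 RPM, had an interval of 0.947 to 6.81, whose lower end is under the EV limit.

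miR-205-5p, which is highest in stratified and glandular epithelia and in squamous lung tumours, was the most abundant member. It had 3 and 6 reads in untreated EV (5.59 and 24.0 RPM), 5 and 5 in etoposide-treated EV (23.5 and 13.8 RPM), 1 and 7 in untreated R273H (2.21 and 17.2 RPM), and 0 and 0 in etoposide-treated R273H. All 4 EV libraries had reads of it, and both R273H libraries without a read were the etoposide-treated ones. Of its 8 reads in R273H, 7 were in replicate 2 of the untreated cells, the library described above.

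**Figure D3:**
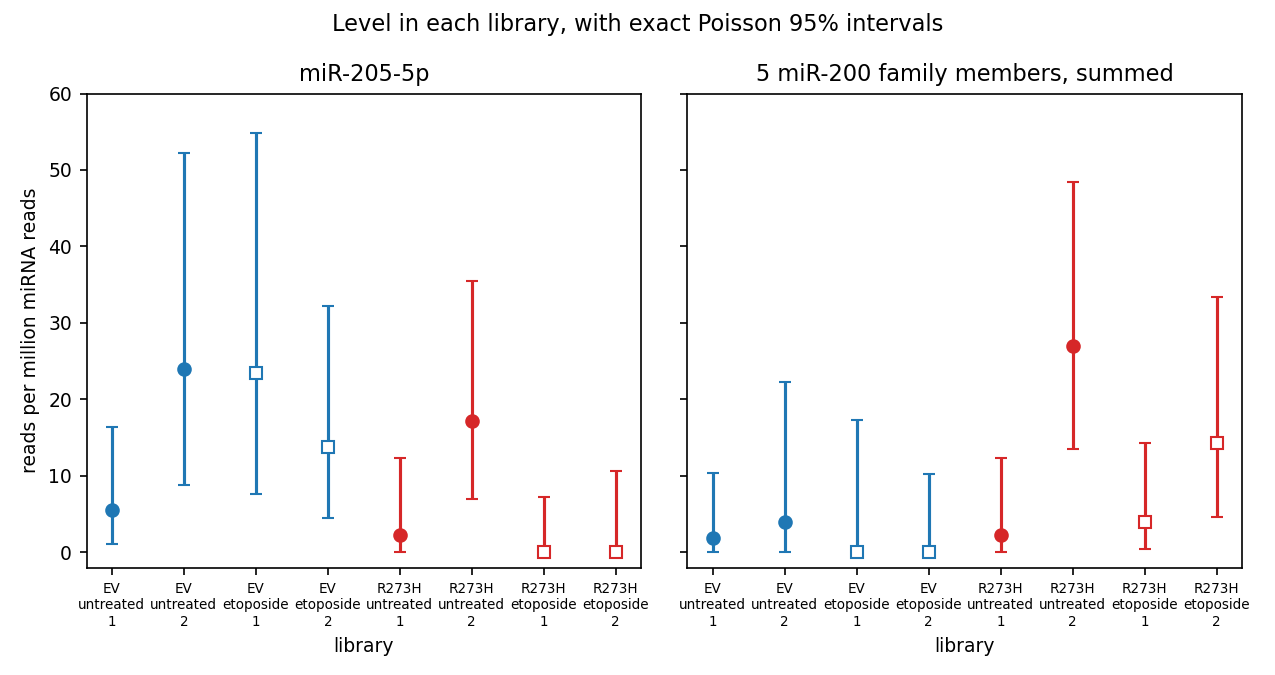
RPM in each library for miR-205-5p (left) and for the 5 members of the miR-200 family summed (right), with exact Poisson 95% intervals as bars; blue is EV, red is R273H, filled circles are untreated and open squares are etoposide-treated. miR-205-5p is at 0 in both etoposide-treated R273H libraries, and the miR-200 family peaks at 27.0 in replicate 2 of untreated R273H.

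In untreated cells miR-205-5p did not differ between the lines beyond the spread of the libraries. The deposited normalized counts were 2.08 and 9.56 in EV and 1.03 and 6.22 in R273H, and these ranges overlap. The log2 fold change on the scale log2(normalized count + 1) was -0.57 ± 0.74 (SE, 2 libraries a group), with a Benjamini-Hochberg adjusted p = 0.634 over 304 miRNAs in limma. Of the members, 0 of 1 tested met the study's criteria (unadjusted p under 0.05 and at least 2-fold), where 27.3% of all miRNAs tested did. Without the filter on low values all 6 members entered the fit, and adjusted p-values in limma ran from 0.572 (miR-429) to 0.742 (miR-200b-3p).

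Etoposide left miR-205-5p of EV cells within the spread of the libraries. Normalized counts were 1.93 and 9.08 untreated and 4.77 and 4.92 under etoposide, so both treated libraries lay between the untreated ones. The log2 fold change was 0.10 ± 0.77 (SE, 2 libraries a group) with an adjusted p = 0.993 in limma, and 0 of 1 member tested was called against 6.76% of all miRNAs. The miR-200 family had 2 reads without and 0 reads with etoposide in EV, both under the limit.

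In R273H cells miR-205-5p had normalized counts of 1.33 and 8.27 untreated and 0 and 0 under etoposide, and failed the filter, as did the 5 others. Of the members 0 were therefore tested in this comparison, where 6.16% of all miRNAs were called. The untreated mean of 9.71 RPM was 1.34 times the limit of 3 reads per library (7.26 RPM on average), but 1 of the 2 untreated libraries was itself at 1 read. Pooled intervals overlapped (4.02 to 18.4 RPM untreated and 0 to 4.31 RPM under etoposide), so no minimum fold is given. Without the filter miR-205-5p met the unadjusted criteria in limma, with a log2 fold change of -2.22 that rests on a group at 0, and had an adjusted p = 0.686. The family's 12 reads without and 7 reads with etoposide in R273H gave overlapping intervals (7.22 to 24.4 and 3.29 to 16.9 RPM). Of the 12 untreated reads, 11 were in replicate 2. Without that library, untreated R273H had 1 read, at 2.21 RPM (interval 0.056 to 12.3). This is under the 8.18 RPM pooled from the treated libraries, so the direction depended on replicate 2, and the intervals still overlapped.

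Under etoposide miR-205-5p was lower in R273H than in EV. Counts of 5 and 5 reads in EV faced 0 and 0 in R273H. The EV mean of 18.6 ± 6.84 RPM (SD, n = 2) was 2.57 times the limit of 7.26 RPM in R273H. This ratio leaves out the counting error of EV. Pooled intervals were 8.34 to 32.0 RPM in EV and 0 to 4.31 RPM in R273H, and take no account of the spread between libraries. No deposited table holds both treated groups, so reads were recovered for the 8 libraries and fitted with edgeR (quasi-likelihood test), which gave an adjusted p = 0.00328 over 334 miRNAs. miR-205-5p passed the filter of this fit, a mean of 3 reads over the 8 libraries, mainly through EV, which held 19 of its 27 reads, and without any filter edgeR gave an adjusted p = 0.00377. miR-205-5p was the only member tested and was called, beside 25.4% of all miRNAs. Of 242 miRNAs with at least 5 reads in both treated EV libraries, 3 had 0 reads in both treated R273H libraries. The minimum was taken from miR-205-5p itself, so its place among the 3 was fixed in advance and the count does not test it. The others were miR-3192-3p and miR-376c-3p, named after their values were seen. In the opposite direction, 2 of 298 miRNAs with at least 5 reads in both treated R273H libraries had 0 reads in both treated EV libraries.

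The red blood cell miRNA miR-451a went the same way under etoposide, with 3 and 1 reads in R273H against 12 and 6 in EV (edgeR adjusted p = 0.00496). miR-486-5p, the most abundant of the blood list, had 9 and 12 reads in R273H against 10 and 4 in EV and was not called (edgeR log2 fold change -0.36 ± 0.68 SE, adjusted p = 0.779). The blood list as a whole summed to 117 and 30.4 RPM in treated EV and to 25.7 and 37.3 RPM in treated R273H. Their part in the level of miR-205-5p was not tested.

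Over both treatments miR-205-5p had 19 reads in EV, 13.9 RPM (interval 8.40 to 21.8), and 8 in R273H, 4.67 RPM (2.01 to 9.20). edgeR gave an adjusted p = 0.00403 for this contrast, in which 28.7% of miRNAs were called. The exact permutation test over libraries within treatments gave p = 0.111. The edgeR contrast averages the line differences of both treatments, and so includes the etoposide comparison above, where R273H was at 0 reads. In untreated cells alone edgeR gave a log2 fold change of -0.51 ± 0.90 SE (adjusted p = 0.716). The contrast over both treatments is therefore not separate from the result under etoposide. Levels overlapped, since the highest R273H library (17.2 RPM) was above 2 of the 4 EV libraries. Without replicate 2 of untreated R273H, R273H kept 1 read of miR-205-5p in 3 libraries, 0.765 RPM (0.0194 to 4.26), and miR-205-5p no longer passed the filter.

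The response to etoposide over both lines was not called after adjustment. In edgeR miR-205-5p met the unadjusted criteria, as did 4.19% of miRNAs, and had an adjusted p = 0.160. For the difference of the etoposide responses between the lines, miR-205-5p also met them, as did 3.59% of miRNAs, with an adjusted p = 0.622 in edgeR. A fitted fold change against a group at 0 depends on the prior count and is not given.

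Most other miRNAs known to repress ZEB1, ZEB2 or the related factors SNAI1 and SNAI2 were more abundant than the members, with miR-153-3p, miR-150-5p and miR-215-5p as exceptions. Of 17 such miRNAs 15 were detected, with a median level of 256 RPM against 1.40 RPM over the 6 members, and they made up 5.09% to 8.03% of a library's miRNA reads. The most abundant was miR-30c-5p, a miR-30 member that targets SNAI1, at 40878 ± 8520 RPM (SD, n = 8). The rarest was miR-153-3p, with 3 reads, all in R273H and 1 to 2 a library, which is the range of the miR-200 family. miR-150-5p and miR-215-5p were not listed.

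Of the 14 tested in untreated cells, 2 were called higher in R273H, 2 were called lower and 10 were not called, beside 50 higher and 33 lower of all 304 miRNAs (27.3% called), so the share in the list was near that of all miRNAs. The median log2 fold change was 0.45 against 0.10 over all 304. miR-30d-5p fell in R273H, to normalized counts of 147 and 180 against 684 and 618 in EV (log2 fold change -1.99 ± 0.31 SE, adjusted p = 0.000315 in limma). miR-139-5p had 16 and 20 reads in R273H where EV had 0 and 1 (adjusted p = 0.00141 in limma). Its R273H mean of 42.3 RPM was 4.81 times the EV limit of 8.80 RPM (3 reads per library). miR-205-5p, at -0.57, lay between miR-30d-5p and miR-139-5p. Under etoposide 1 of 13 was called higher in EV and 2 of 14 lower in R273H, none with an adjusted p under 0.05. Of all miRNAs tested, 6.76% in EV and 6.16% in R273H were called.

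Most other miRNAs enriched in epithelia were more abundant than the members, with miR-375 and miR-215-5p as exceptions. Of 8 in the list, which shares miR-203a, miR-192-5p and miR-215-5p with the list above, 7 were detected. The median over all 8, with miR-215-5p as 0, was 176 RPM. miR-182-5p, from a sensory and epithelial cluster, led it at 1208 ± 441 RPM (SD, n = 8). miR-375, known from neuroendocrine and glandular cells, had 6 reads in all, at 2.66 RPM, and sat next to miR-200a-3p in rank. In untreated cells 1 of 6 tested fell in R273H, 0 were called higher and 5 were not called, beside 27.3% called of all miRNAs, with a median log2 fold change of -0.19 against 0.10. That 1 was miR-194-5p, an epithelial miRNA of gut and liver, with normalized counts of 4.10 and 7.11 in R273H against 18.0 and 31.9 in EV (log2 fold change -1.96 ± 0.54 SE, adjusted p = 0.0144 in limma). miR-96-5p, with 156 and 145 counts in EV and 274 and 248 in R273H, did not reach 2-fold (0.79 ± 0.32 SE, adjusted p = 0.0883 in limma). In the response to etoposide within R273H limma called miR-194-5p higher than in untreated cells, the 1 call among the 6 in either line. Of all miRNAs tested, 6.16% were called in R273H and 6.76% in EV. In EV no unadjusted p of the list was under 0.05. Between the treated lines miR-194-5p was lower in R273H than in EV (edgeR log2 fold change -1.24 ± 0.47 SE, adjusted p = 0.0417), as in untreated cells.

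The miRNAs known from mesenchymal or invasive cells made up 37% to 55.6% of a library's miRNA reads, most of it miR-21-5p. All 10 were detected, from miR-155-5p at 63.0 ± 29.3 RPM (SD, n = 8) upward, so that the rarest of them was above miR-205-5p. In untreated cells 2 of 10 were called lower in R273H, 0 higher and 8 were not called, beside 27.3% called of all miRNAs, with a median log2 fold change of -0.34 against 0.10. miR-9-5p, which targets E-cadherin, fell to normalized counts of 52.3 and 67.5 from 161 and 193 (log2 fold change -1.55 ± 0.36 SE, adjusted p = 0.00520 in limma). miR-125b-5p fell from 3440 and 2356 to 1237 and 1259 (-1.19 ± 0.28 SE, adjusted p = 0.00542 in limma). With library upper quartiles made equal instead, it was at -0.93 and no longer called. Under etoposide 1 of 10 was called lower in each line, beside 6.76% of all miRNAs called in EV and 6.16% in R273H. These lists were set beside the members by level and count alone, and no list was tested as a set.

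**Figure D4:**
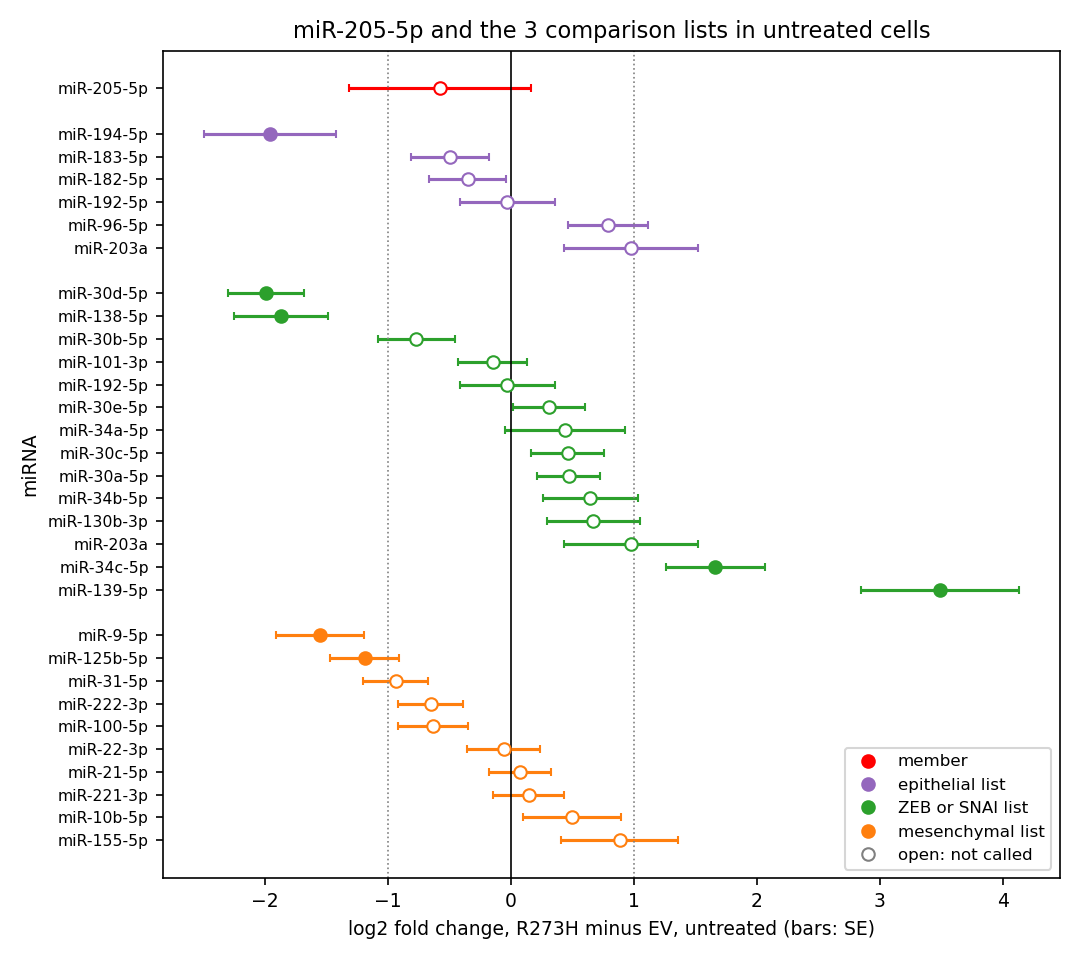
Log2 fold change on the scale log2(normalized count + 1), R273H minus EV in untreated cells, with SE bars, for miR-205-5p (red, the only member past the filter) and the tested miRNAs of the epithelial (purple), ZEB or SNAI (green) and mesenchymal (orange) lists; filled circles met the criteria of p under 0.05 and at least 2-fold (dotted lines). miR-205-5p at -0.57 is not called, and miR-30d-5p (-1.99) and miR-194-5p (-1.96) lie lowest; the value of miR-139-5p rests on 0 and 1 reads in EV.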

How the data were processed

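Small RNA libraries of the 8 samples had been sequenced on an Ion PGM instrument. The authors kept reads of 17 to 35 bases, aligned them with SHRiMP to miRBase 20 and with Novoalign to GRCh37 (hg19 in the submitters' processing notes), counted them per feature and scaled the counts with DESeq. They deposited, for each of 3 comparisons, a table of normalized signal, that is reads divided by a size factor per library, normalized separately. Further deposited tables of the authors' own log2 fold changes and p-values were not used. All values (100% in each library, within 0.1 read) came out as whole reads, and reads recovered from different tables differed for 0 of 3546 shared values. Totals were 234545 to 579367 reads.

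Each comparison was tested within its table with limma 3.58.1 (eBayes with trend, R 4.3.3) on log2(normalized count + 1), which understates changes of low miRNAs, for miRNAs with a mean of at least 3. A call was an unadjusted p under 0.05 and at least 2-fold, as in the study, and p-values were adjusted by Benjamini-Hochberg over all miRNAs tested. On recovered reads, edgeR 4.0.16 called 80, 19 and 24 miRNAs in these comparisons, where limma called 83, 20 and 21. Contrasts across tables used edgeR (TMM, quasi-likelihood) on recovered reads of all 8 libraries, with a mean of at least 3 reads. Scripts were tested on simulated data. DESeq2 1.42.0, pseudocounts of 0.5 and 5, no filter or a mean of 10, equal upper quartiles, limma without the trend, a replicate block and each library left out in turn were alternatives. The permutation tests and the values without replicate 2 of untreated R273H were added after the data were seen. Levels, intervals and permutation tests used Python 3.11.15, pandas 2.3.3, numpy 2.4.6 and scipy 1.17.1, and figures matplotlib 3.10.9. Positions are from GENCODE 44 lifted to GRCh37 and from exact matches of the mature sequences.

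Named are the members, their opposite arms, their neighbours in rank and at most 4 miRNAs of each list: the most and the least abundant detected, and those with the smallest p in untreated cells among miRNAs whose libraries did not overlap between the lines. Outside this rule, list miRNAs that were not listed or stand in both lists are named, as are the blood, liver, muscle and neuron markers, and miR-3192-3p, miR-376c-3p and the examples among the blood and muscle markers were chosen after their values were seen. The members and lists were chosen with earlier results of these data known.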

Additional observations from a re-analysis of the deposited data

How the results depend on the processing

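At 0 to 7 reads of a member per library, depth limits every value of the members, and 5 of 6 could not be tested. In edgeR miR-205-5p stayed lower in R273H under etoposide and over both treatments in each alternative that kept it past the filter; leaving out single libraries gave adjusted p-values of 0.00388 to 0.0579 and 0.00214 to 0.0595. Without replicate 2 of untreated R273H it could not be fitted. A lone library was assumed to vary like the other groups. Levels of the members moved by less than 1 SD with all counted features, or miRNA reads without miR-21-5p, as the total. This is a wide limit, since the SDs were close to or above the means. Leaving out miR-21-5p took away 30.6% to 44.5% of a library's miRNA reads.

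Single libraries decided its direction elsewhere. With 1 library left out, its untreated log2 fold change between the lines ranged from -1.49 to 0.34 and its etoposide response in EV from -0.79 to 1.00, the latter also -0.0049 with a pseudocount of 5 and -0.029 in DESeq2. Likewise miR-21-5p ranged from -0.20 to 0.35 (-0.090 in edgeR and -0.019 in DESeq2) and miR-30c-5p from -0.050 to 0.97.

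Counts of all miRNAs called with 1 library left out were 52 to 78 for the untreated lines, where replicate 1 of R273H decides the low end, 9 to 19 for etoposide in EV, 9 to 32 for etoposide in R273H and 10 to 28 for the difference of responses. Etoposide in EV gave 13 calls with a pseudocount of 5, 10 with a mean of 10, 13 with equal upper quartiles and 12 in DESeq2, beside 20. Etoposide in R273H gave 11, 10, 34 and 10 in that order and 33 without a filter, beside 21. Over both lines a mean of 10 reads gave 8, beside 14. The difference of responses gave 32 without a filter, 6 with a mean of 10 reads and 5 in DESeq2, beside 12. Equal upper quartiles moved the median log2 fold change by 0.25, 0.16 and 0.41 in the 3 tables, and called 52 higher and 20 lower, 6 and 7, and 32 and 2, beside 50 and 33, 7 and 13, and 10 and 11.

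Replicate numbers did not pair the libraries (correlations of deviations from -0.147 to 0.136). With the replicate block, limma called 75, 16 and 17 miRNAs in the 3 tables, and miR-205-5p had adjusted p-values of 0.435 between the untreated lines in limma and 0.0282 under etoposide in edgeR.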
